A study of Rattus norvegicus with 16 samples.

Results

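The miR-30 family was read from 10 of the 722 rat miRNAs counted by small RNA sequencing, taken by name. They were the 5p arms rno-miR-30a-5p, rno-miR-30b-5p, rno-miR-30c-5p, rno-miR-30d-5p and rno-miR-30e-5p, and the 3p arms rno-miR-30a-3p, rno-miR-30c-1-3p, rno-miR-30c-2-3p, rno-miR-30d-3p and rno-miR-30e-3p, written without the species prefix from here on. The tables also list miR-30b-3p, which lies outside this set and is given only where it is named. The tissue came from rats 60 days old of the High Responder or Low Responder strain, names used for lines bred for strong or weak locomotion in a new environment. Each line gave 4 libraries from the dorsal raphe, the midbrain nucleus from which serotonin neurons project to the forebrain, and 4 from the amygdala, a forebrain region of fear and emotional learning, so there were 4 groups and 16 libraries. The labels name no treatment, allele or transgene in any group, and are silent on whether each sample is a different animal. P-values therefore measure only the spread between these samples, which may be technical. In bulk tissue, fewer cells of a type and less RNA per cell cannot be told apart.

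A miRNA hairpin is cut to a short duplex, and 1 strand, the guide, is usually kept in an Argonaute protein while the other, the passenger, is mostly lost. The guide finds messenger RNAs mainly through its seed, bases 2 to 8, and miRNAs that share a seed form a family with overlapping targets. The 5p arms are the usual guides of the miR-30 family, which is abundant in many tissues including brain, and whose reported targets include the autophagy gene Becn1 and the neurotrophin gene Bdnf.

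The sequences below show how little separates the members. They are RefSeq mature sequences (assembly GRCr8), written 5′ to 3′ with the seed in capitals, and were found for 6 of the 10 members. miR-30b-5p, miR-30d-5p, miR-30d-3p and miR-30e-3p are named only.
miR-30a-5p: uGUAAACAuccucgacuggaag
miR-30e-5p: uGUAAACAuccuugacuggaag
miR-30c-5p: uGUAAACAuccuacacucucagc
miR-384-5p: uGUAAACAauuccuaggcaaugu
miR-30a-3p: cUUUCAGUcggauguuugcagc
miR-30c-1-3p: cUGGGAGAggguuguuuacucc
miR-30c-2-3p: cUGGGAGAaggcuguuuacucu
The 3 printed 5p arms of the family share their first 12 bases. Counting from the 5′ end, miR-30e-5p differs from miR-30a-5p by C13U alone. miR-30c-2-3p differs from miR-30c-1-3p by G9A, U12C and C22U, all outside the seed. Among the 644 counted miRNAs with a RefSeq sequence, the seed GUAAACA was found in 1 miRNA outside the family, miR-384-5p, which is printed for that reason. The seeds UUUCAGU and UGGGAGA were found in no other of the 644. Because miR-30a-5p and miR-30e-5p differ at 1 base and how multiply matching reads were counted is not given in the sources used here, the split of reads between these 2 is uncertain, and the same holds for miR-30c-1-3p and miR-30c-2-3p.

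In GRCr8, miR-30a-5p lies at chr9:33233946-33233967 and miR-30a-3p at chr9:33233987-33234008, both on the plus strand. miR-30c-5p has the same sequence in both of its hairpins, at chr9:33253695-33253717 on the plus strand (Mir30c2) and at chr5:139634505-139634527 on the minus strand (Mir30c1), so that its counts cannot be assigned to either hairpin. The 3p arms do tell the hairpins apart: miR-30c-2-3p lies at chr9:33253735-33253756 and miR-30c-1-3p at chr5:139634467-139634488. miR-30e-5p lies at chr5:139637504-139637525 on the minus strand. The family thus sits in clusters, with 19670 bases between Mir30a and Mir30c2 and 2906 bases between Mir30c1 and Mir30e. RefSeq places Mir30c1 and Mir30e within Nfyc, the gene of a subunit of the CCAAT-binding factor NF-Y, and Mir30b and Mir30d within 1 long noncoding RNA gene. Mir30c2 overlaps a long noncoding RNA gene and a pseudogene, and no gene spans Mir30a.

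Library totals ran from 1741167 to 8134915 counts, and 3 counts, taken as the detection floor, came to between 0.369 and 1.72 CPM, the count scaled to a library of 1000000 counts. All 10 members were counted in every library, the lowest at 27 counts. Scaling factors by trimmed mean of M values (TMM) ran from 0.870 to 1.27 except in low responder raphe replicate 4, at 0.596. This library and high responder amygdala replicate 1 stood apart from their groups, so the comparisons below are also given on the other 14 libraries. That choice was made on the values themselves, so p-values on the 14 libraries follow a selection on these data. Of 405 miRNAs with a mean of at least 10 CPM, 47.9% were at least 2-fold lower in low responder raphe replicate 4 than the mean of the other 3 of its group and 13.6% at least 2-fold higher. In high responder amygdala replicate 1 these shares were 29.4% and 9.63%. In the other 14 libraries the share at least 2-fold lower ran from 0.247% to 10.1%, and the share at least 2-fold higher from 0% to 9.88%, so that the latter did not set high responder amygdala replicate 1 apart. All 8 neuronal marker miRNAs listed were detected, with summed levels of 153262 to 195915 CPM in the raphe libraries and 243879 to 295054 CPM in the amygdala libraries.

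The 5p arms were among the most abundant miRNAs of both regions. By mean CPM over the 16 libraries, miR-30a-5p ranked 12, miR-30d-5p 13, miR-30c-5p 22, miR-30e-5p 23 and miR-30b-5p 83 of 722. Together the 5 arms held 6.79% to 8.73% of the counts in 14 libraries, 5.66% in low responder raphe replicate 4 and 4.39% in high responder amygdala replicate 1. Group means were 6.78% ± 0.750 (SD, n = 4) in low responder raphe, 8.29% ± 0.314 in high responder raphe, 7.77% ± 0.313 in low responder amygdala and 6.63% ± 1.61 in high responder amygdala. The printed mature forms are 22 or 23 bases long, so levels were not divided by length, and how well each sequence is captured in a library was not measured. Levels below are unscaled CPM unless TMM is named.

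On unscaled CPM miR-30a-5p, processed from the chromosome 9 cluster, was the steadiest of the family, with a highest level 1.69 times the lowest. On the TMM scale it was not. There it ran from 17380 to 49435 CPM, the highest in low responder raphe replicate 4, and miR-30d-5p from 16019 to 33522 CPM. Unscaled, miR-30a-5p measured 19796, 22285, 20211 and 29444 CPM in low responder raphe replicates 1 to 4 and 26172, 25671, 26985 and 23043 CPM in high responder raphe. In the amygdala it measured 31622, 24358, 25611 and 27667 CPM in low responders and 18751, 21483, 18798 and 19169 CPM in high responders. The amygdala groups did not overlap, with high responders lower, and the raphe groups did.

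miR-30d-5p, from the Mir30d hairpin, spanned 1.73-fold. Its levels were 20588, 18097, 19724 and 19605 CPM in low responder raphe and 20288, 30425, 20714 and 26938 CPM in high responder raphe. Amygdala levels were 23787, 22669, 25944 and 23179 CPM in low responders and 17909, 31058, 26580 and 30224 CPM in high responders. The lines overlapped in each region, while every low responder amygdala library lay above every low responder raphe library. High responder amygdala held both the lowest and the highest library. miR-30a-5p and miR-30d-5p were not set apart by their levels, since their ratio within a library ran from 0.634 to 1.502.

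miR-30e-5p, which shares all but 1 base with miR-30a-5p, varied 5.69-fold. In low responder raphe it measured 13349, 13492, 13349 and 3211 CPM, and in high responder raphe 15152, 14214, 16178 and 14134 CPM. In low responder amygdala it measured 11862, 12140, 13558 and 14176 CPM, and in high responder amygdala 4063, 8494, 13517 and 18260 CPM. The low values were those of low responder raphe replicate 4 and high responder amygdala replicates 1 and 2, while the highest of all was high responder amygdala replicate 4.

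miR-30c-5p, the product of 2 hairpins, varied 5.51-fold with the same libraries at the bottom. It stood at 16353, 16708, 15637 and 4186 CPM in low responder raphe and 16941, 15135, 15831 and 16615 CPM in high responder raphe. Amygdala levels were 9600, 12920, 12347 and 14422 CPM in low responders and 3077, 6231, 11105 and 12636 CPM in high responders. miR-30c-5p and miR-30e-5p stayed close to each other, with a ratio of 0.692 to 1.304 in all 16 libraries.

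miR-30b-5p, the least abundant 5p arm in every library, varied most, 17.5-fold. Low responder raphe gave 1742, 1573, 1836 and 185 CPM and high responder raphe 1445, 1885, 2040 and 1702 CPM. Low responder amygdala gave 795, 1302, 1493 and 1285 CPM and high responder amygdala 117, 591, 1362 and 1712 CPM. The lowest library, high responder amygdala replicate 1, still held 203 counts of it, far above the floor.

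**Figure D1:**
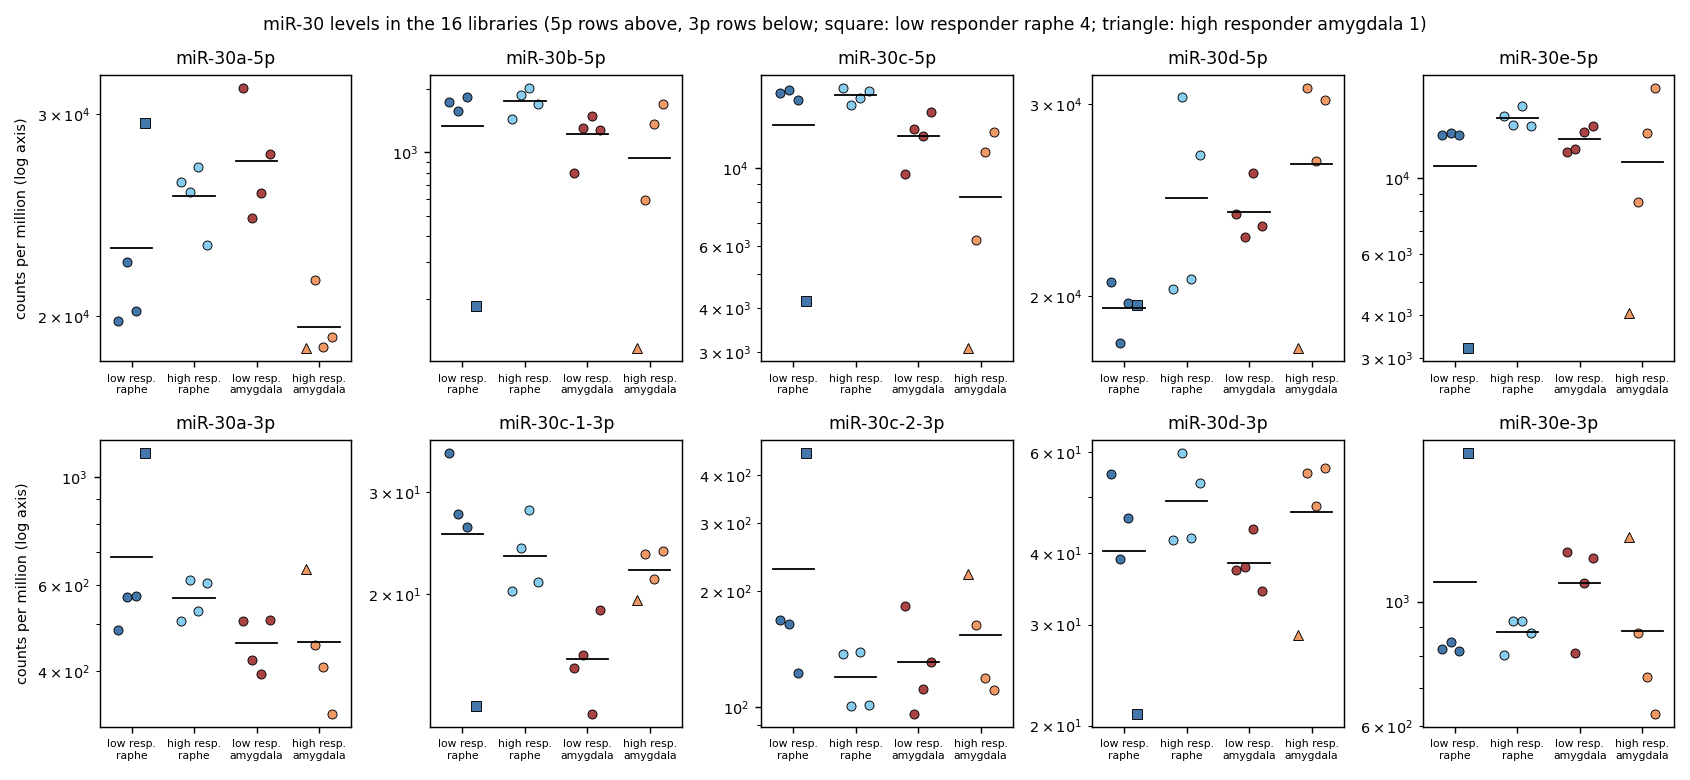
Level of each miR-30 row in each of the 16 libraries, as unscaled CPM on a log axis, by group. Points are libraries, black lines are group means, squares mark low responder raphe replicate 4 and triangles high responder amygdala replicate 1. miR-30a-5p and miR-30d-5p span 1.69-fold and 1.73-fold, and miR-30b-5p spans 17.5-fold with both marked libraries at the bottom.

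Within low responder raphe replicate 4 the family thus split. Against the mean of the other 3 libraries of the group, miR-30b-5p was 9.30-fold lower, miR-30e-5p 4.17-fold lower and miR-30c-5p 3.88-fold lower, whereas miR-30a-5p was 1.42-fold higher and miR-30d-5p 1.01-fold higher. In high responder amygdala replicate 1, miR-30b-5p was 10.48-fold lower, miR-30e-5p 3.30-fold, miR-30c-5p 3.25-fold and miR-30d-5p 1.64-fold, with miR-30a-5p 1.06-fold lower. Of the 10 members, 5 were at least 2-fold lower and 3 at least 2-fold higher in low responder raphe replicate 4, against 47.9% and 13.6% of all miRNAs. In high responder amygdala replicate 1, 3 were lower and 0 higher, against 29.4% and 9.63%. These libraries were singled out after their values were seen, and their difference from their groups was not tested.

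Seen as shares of the 5p counts, miR-30b-5p, miR-30c-5p and miR-30e-5p together made up 13.4% in low responder raphe replicate 4, 16.5% in high responder amygdala replicate 1 and 22.6% in high responder amygdala replicate 2. The other 13 libraries held between 28.7% and 44.0%. The ratio of miR-30a-5p to miR-30e-5p, which differ at 1 base, was 9.17, 4.61 and 2.53 in the same 3 libraries and 1.05 to 2.67 in the rest. Depth moved with this: the 3 libraries held 2096188, 1741167 and 2561377 counts. High responder raphe replicate 1, at 2419326 counts, was shallower than the last of these and deeper than the first 2, and had miR-30b-5p at 1445 CPM. Within groups, TMM-scaled log2 CPM correlated with log2 library total at r = 0.85 for miR-30b-5p and miR-30c-5p and 0.84 for miR-30e-5p. For miR-30a-5p r was -0.21 and for miR-30d-5p 0.25 (16 libraries, description only). The part of depth in the split was not tested.

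**Figure D2:**
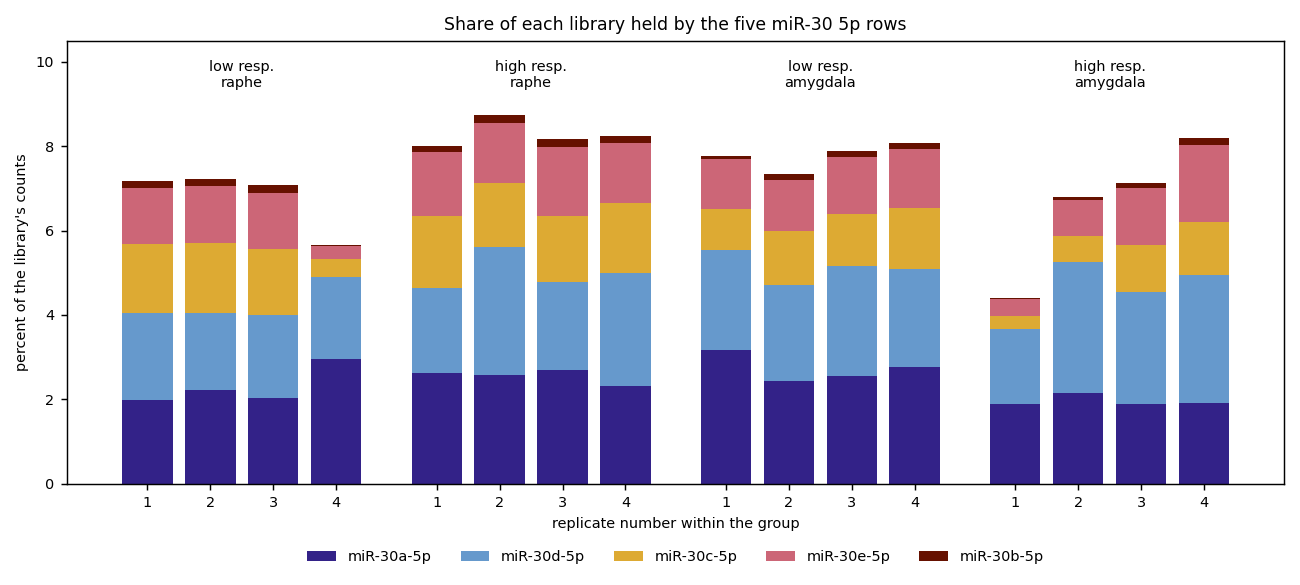
Share of each library's counts held by each 5p arm of the family, in percent, with 1 stacked bar for each of the 16 libraries. The bars total 5.66% in low responder raphe replicate 4, 4.39% in high responder amygdala replicate 1 and 6.79% to 8.73% in the rest. The part held by miR-30b-5p, miR-30c-5p and miR-30e-5p is smallest in the first 2 of these.

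Over the 16 libraries, miR-30b-5p, miR-30c-5p and miR-30e-5p varied together, and miR-30a-5p did not vary with them. Deviations of TMM-scaled log2 CPM from the group mean correlated at r = 0.98 for each pair of these 3. Over 14 libraries, without the 2 that stood apart, r was 0.93 to 0.94. miR-30a-5p and miR-30d-5p gave 0.69 over 16 and 0.40 over 14. miR-30a-5p and miR-30e-5p gave -0.24 over 16 and 0.40 over 14. These correlations are descriptions over libraries that share depth and composition. GC content of the printed 5p arms was 45.5% for miR-30a-5p, 43.5% for miR-30c-5p and 40.9% for miR-30e-5p. Across 362 miRNAs the correlation of GC content with a library's deviation from its group was 0.176 in low responder raphe replicate 4 and 0.274 in high responder amygdala replicate 1, within the range of the other 14 libraries, from -0.253 to 0.346.

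Several other lists also lay outside the rest of the group in these libraries, some by little, with none of their counted members at 0 over the series. The 7 miR-29 family miRNAs summed to 9456 CPM in low responder raphe replicate 4, against 24094 to 30375 CPM in the rest of its group, and the 3 miRNAs listed for astrocytes to 3224 CPM against 13456 to 14715 CPM. The 5 vascular miRNAs summed to 71085 CPM there against 50862 to 59422 CPM, the 5 oligodendrocyte miRNAs to 24153 CPM against 15090 to 17449 CPM, and the 4 muscle miRNAs to 3029 CPM against 1491 to 1936 CPM. The 8 let-7 5p arms summed to 98827 CPM against 80537 to 94358 CPM. The microglia and leukocyte list summed to 183 CPM there against 421 to 563 CPM, and the erythrocyte list to 46.8 CPM against 135 to 154 CPM. The neuronal list, at 159976 CPM, lay within its group, which ran from 153262 to 164381 CPM. In high responder amygdala replicate 1 the miR-29 family summed to 8239 CPM, against 12623 to 25268 CPM in the rest of its group, and the astrocyte list to 7903 CPM, against 8246 to 12731 CPM. The neuronal list (295054 CPM, others 243879 to 273016) and the vascular list (45161 CPM, others 38105 to 43413) lay above the rest there. The let-7 5p arms (77369 CPM, others 69335 to 73791) and the muscle list (339 CPM, others 237 to 319) did so too. Below lay the choroid plexus list (13109 CPM, others 20436 to 25965) and the erythrocyte list (60.9 CPM, others 105 to 291). The microglia and leukocyte list (195 CPM, others 262 to 375) also lay below. The oligodendrocyte list and the let-7 3p arms lay within the group. The part of these lists in the miR-30 levels was not tested.

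The 3p arms were far scarcer, together 0.115% to 0.345% of a library's counts. miR-30e-3p led, with 824, 848, 816 and 1843 CPM in low responder raphe, 803, 925, 923 and 877 CPM in high responder raphe, 1227, 809, 1079 and 1198 CPM in low responder amygdala and 1302, 880, 734 and 631 CPM in high responder amygdala. Its high library in the raphe was low responder replicate 4, where miR-30e-5p was low.

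miR-30a-3p followed, with 486, 568, 569 and 1120 CPM in low responder raphe and 506, 616, 531 and 605 CPM in high responder raphe. Amygdala levels were 505, 421, 394 and 508 CPM in low responders and 647, 452, 408 and 327 CPM in high responders. The raphe and amygdala libraries overlapped.

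miR-30c-2-3p, the 3p arm of the chromosome 9 copy, measured 169, 165, 122 and 457 CPM in low responder raphe and 138, 101, 139 and 102 CPM in high responder raphe. In the amygdala it measured 184, 96.4, 112 and 131 CPM in low responders and 221, 164, 119 and 111 CPM in high responders. Apart from low responder raphe replicate 4, no library exceeded 221 CPM.

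miR-30d-3p lay between 21.0 and 59.8 CPM and miR-30c-1-3p, the 3p arm of the chromosome 5 copy, between 12.5 and 35.0 CPM. miR-30c-1-3p measured 35.0, 27.5, 26.1 and 12.9 CPM in low responder raphe, 20.3, 24.0, 28.0 and 21.0 CPM in high responder raphe, 14.96, 15.8, 12.5 and 18.8 CPM in low responder amygdala and 19.5, 23.4, 21.3 and 23.8 CPM in high responder amygdala. On this unscaled level every high responder amygdala library lay above every low responder one, a pattern noticed in the values.

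In low responder raphe replicate 4 the 3p arms also split: miR-30c-2-3p was 3.00-fold, miR-30e-3p 2.22-fold and miR-30a-3p 2.07-fold higher than in the rest of the group, whereas miR-30c-1-3p was 2.29-fold and miR-30d-3p 2.22-fold lower. In that library the 3p arm of miR-30e was high and its 5p arm low, whereas the 3p arm of miR-30d was low and its 5p arm stood 1.01-fold higher. Within groups and on the TMM scale, miR-30e-5p and miR-30e-3p correlated at r = -0.60 over 16 libraries and 0.14 over 14. miR-30d-5p and miR-30d-3p correlated at 0.68 and 0.94.

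The balance of the arms differed widely between hairpins. The 3p arm held 3.34% to 36.5% of the counts of the miR-30e hairpin (median 6.01%), 1.51% to 3.66% for miR-30a (median 2.09%) and 0.107% to 0.266% for miR-30d (median 0.183%). For miR-30c, whose 5p arm counts for both hairpins, miR-30c-2-3p came to 0.607% to 9.83% of its sum with miR-30c-5p (median 0.899%) and miR-30c-1-3p to 0.101% to 0.631% (median 0.166%). miR-30b-3p, outside the set, came to 1.496% to 15.4% (median 2.19%). The highest miR-30e share, 36.5%, was in low responder raphe replicate 4 and the next, 24.3%, in high responder amygdala replicate 1. The other 14 libraries held 3.34% to 9.39%.

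**Figure D3:**
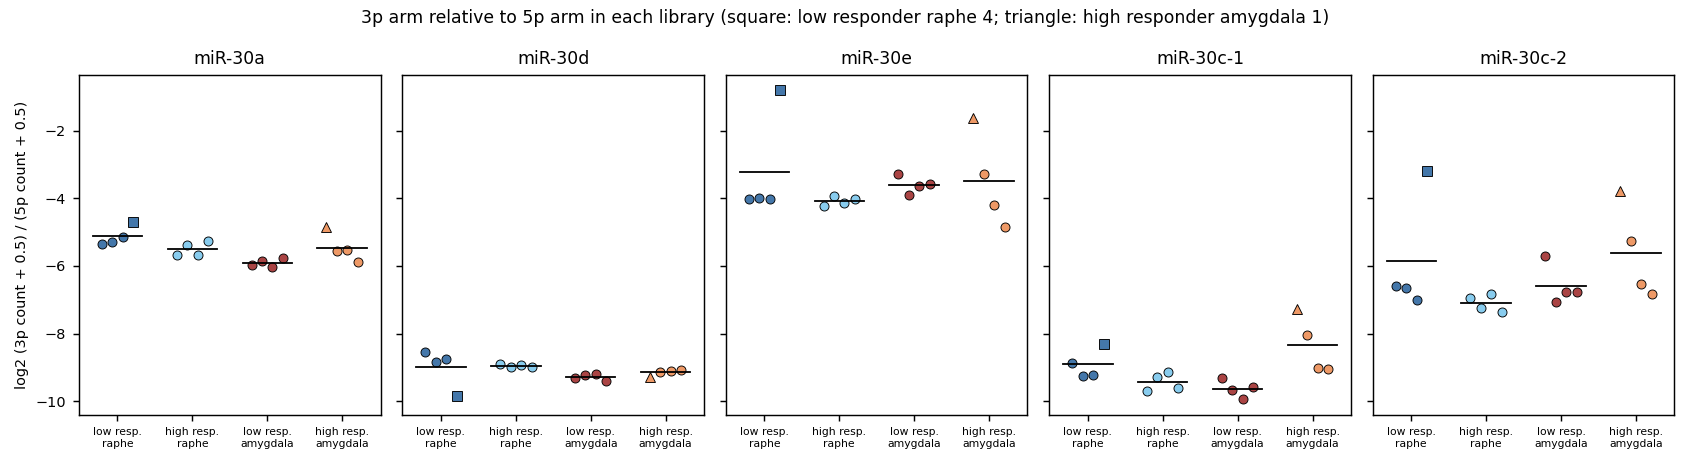
Log2 ratio of 3p to 5p counts of each miR-30 hairpin, in each of the 16 libraries by group. Points are libraries, black lines are group means, squares mark low responder raphe replicate 4 and triangles high responder amygdala replicate 1. The ratio of miR-30e reaches -0.80 and -1.64 in the marked libraries, and that of miR-30d stays between -9.85 and -8.55 throughout.

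High and low responders were compared within the dorsal raphe by edgeR's quasi-likelihood test over 639 miRNAs, with a call at an adjusted p under 0.05. None of the 10 members passed, and neither did any other miRNA (0%), with 70 of 639 (11%) at an unadjusted p under 0.05, 1 member among them, and 0 called by DESeq2. The groups did not overlap for 4.23% of all miRNAs and for 0 of the 10 members. The furthest member was miR-30c-2-3p, with TMM-scaled levels of 300 ± 311 CPM in the low and 109 ± 14.7 CPM in the high responder libraries (SD, n = 4 each). Its log2 fold change was -1.46 (SE 0.47), with an unadjusted p of 0.0065 and an adjusted p of 0.358 by edgeR. Without low responder raphe replicate 4 and high responder amygdala replicate 1, that log2 fold change was -0.32. miR-30e-3p (-0.75, SE 0.40) and miR-30a-3p (-0.72, SE 0.38) both had an adjusted p of 0.581 by edgeR, and without the 2 libraries their signs turned, to 0.12 and 0.09. Among the 5p arms the log2 fold changes ran from -0.22 for miR-30a-5p to 0.32 for miR-30b-5p and miR-30e-5p. The median of the 10 members was -0.09, beside -0.06 over all 639. The interval at 95% confidence ran from -0.82 to 0.37 for miR-30a-5p and from -0.97 to 1.61 for miR-30b-5p, so that changes of either sign lay within both.

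In the amygdala, again none of the 10 members passed edgeR's test and none of the 639 did (0%), with 65 (10.2%) at an unadjusted p under 0.05, 1 member among them, and 19 called by DESeq2, which called none of the family. miR-30a-5p was lower in high responders without overlap on the TMM scale, at 20144 ± 1918 CPM against 26452 ± 2900 CPM (SD, n = 4 each). The amygdala groups did not overlap for 8.76% of all miRNAs and for 1 of the 10 members. Its log2 fold change was -0.39 (SE 0.28, adjusted p = 0.709 by edgeR). miR-30c-1-3p gave 0.59 (SE 0.25), with an unadjusted p of 0.0303 and an adjusted p of 0.450 by edgeR, at 22.8 ± 3.55 CPM in high responders and 15.1 ± 3.50 CPM in low responders, and its groups overlapped on the TMM scale. On the 14 libraries miR-30a-5p gave -0.35 (adjusted p = 0.223) and miR-30c-1-3p 0.66 (adjusted p = 0.126) by edgeR. miR-30c-5p gave -0.45 and miR-30b-5p -0.22, and without high responder amygdala replicate 1 they came to -0.18 and 0.13. Same-numbered libraries of the amygdala groups were taken as pairs because they deviated together in these same counts. What the numbers stand for is not stated. In these pairs miR-30c-1-3p was higher in high responders in 4 of 4. Low responder replicate 4 (20.2 CPM by TMM) lay above high responder replicate 1 (18.1 CPM) and the lines overlapped nowhere else, so most pairings give this. miR-30a-5p was lower in 4 of 4, which any pairing gives when the groups do not overlap. In edgeR's fit of the 8 amygdala libraries with the pair as a block, miR-30c-5p came to -0.69 (adjusted p = 0.214), miR-30b-5p to -0.80 (adjusted p = 0.392) and miR-30e-5p to -0.35 (adjusted p = 0.513). In the fit of all groups miR-30e-5p had stood at -0.09. miR-30a-5p and miR-30c-1-3p stood at -0.41 (adjusted p = 0.211) and 0.58 (adjusted p = 0.218) in the paired edgeR fit. No miRNA was called in it, and 130, with 3 members, had an unadjusted p under 0.05, against 74, with 1 member, in the same libraries without the block. The members' median was -0.01, beside 0.07 over all miRNAs.

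The line difference in the amygdala minus that in the raphe passed the test for none of the members and none of the 639 miRNAs (0%), with 81 (12.7%) at an unadjusted p under 0.05, 2 members among them, and 22 called by DESeq2, none of the family. The largest values were those of the miR-30c 3p arms, 1.76 (SE 0.66, adjusted p = 0.256) for miR-30c-2-3p and 0.90 (SE 0.35, adjusted p = 0.292) for miR-30c-1-3p, by edgeR. On the 14 libraries these came to 0.44 (adjusted p = 0.703) and 0.97 (adjusted p = 0.186), and miR-30a-5p, at -0.17 with all 16, came to -0.67 (adjusted p = 0.157), by edgeR. The members' median was 0.25 and that of all miRNAs 0.09. Without the 2 libraries that stood apart, 0% of all miRNAs were called for lines in the raphe, 1.39% for lines in the amygdala and 0.463% for the interaction, and 0 of the 10 members in each.

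**Figure D4:**
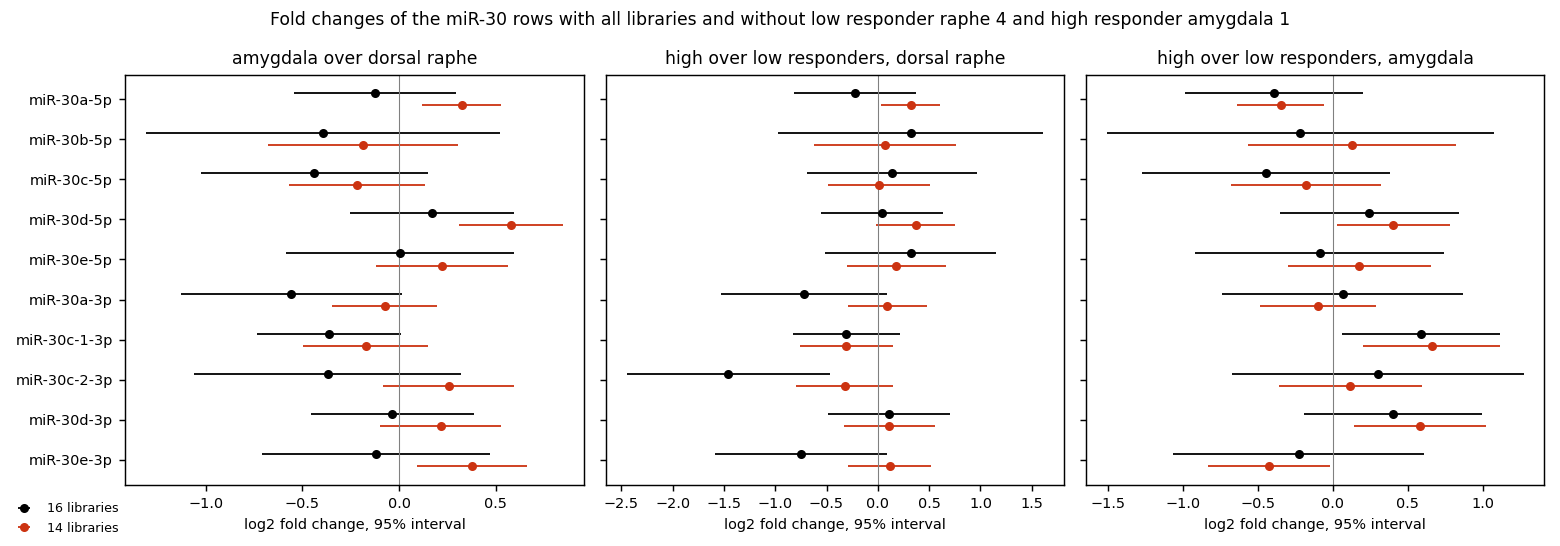
Log2 fold changes of the 10 members with their intervals at 95% confidence, for the line difference in each region and for amygdala over raphe, from the fit with 16 libraries and from the fit with 14. In the raphe miR-30c-2-3p sits at -1.46 with all libraries and at -0.32 without the 2 that stood apart.

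Between regions the background was wide: 24.3% of 639 miRNAs passed edgeR's test for amygdala over raphe averaged over the lines, 60 higher (9.39%) and 95 lower (14.9%), and none of the 10 members did. An unadjusted p under 0.05 was reached by 39% of all miRNAs and by 0 of the 10 members, and the regions did not overlap for 6.57% of all miRNAs and for 0 of the 10. Log2 fold changes ran from -0.56 for miR-30a-3p (SE 0.27, adjusted p = 0.136) to 0.17 for miR-30d-5p, by edgeR. miR-30c-5p gave -0.44 (SE 0.28, adjusted p = 0.254) and miR-30c-1-3p -0.36 (SE 0.18, adjusted p = 0.136). miR-30e-5p stood at 0.0053. With all libraries, all 5 of the 3p arms had negative values, and the median of the 10 members was -0.24, beside -0.08 over all miRNAs. On the 14 libraries miR-30a-3p came to -0.07 and miR-30c-1-3p to -0.17. The other 3p arms turned positive there, miR-30c-2-3p at 0.26, miR-30d-3p at 0.21 and miR-30e-3p at 0.38. Among the comparison families, 0 of 8 let-7 5p arms passed, 1 of 10 let-7 3p arms (miR-98-3p, lower) and 1 of 7 miR-29 miRNAs (miR-29b-3p, lower). Among the cell type lists, 4 of 4 muscle and 3 of 5 oligodendrocyte miRNAs were called lower in the amygdala, and 4 of 8 neuronal and 4 of 6 choroid plexus miRNAs higher. None was called in the astrocyte, microglia and leukocyte, vascular and erythrocyte lists. All 6 choroid plexus miRNAs also had positive values for lines in the amygdala (median 1.301), none of them called, with summed levels of 1233 to 21953 CPM in low and 13109 to 25965 CPM in high responders. The part of these lists in the miR-30 values was not tested.

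Without the 2 libraries that stood apart, 32.7% of 648 miRNAs passed, 128 higher (19.8%) and 84 lower (13%), and 3 members were called higher in the amygdala: miR-30d-5p at 0.58 (SE 0.13, adjusted p = 0.00199), miR-30a-5p at 0.32 (SE 0.10, adjusted p = 0.0171) and miR-30e-3p at 0.38 (SE 0.13, adjusted p = 0.0420), by edgeR. With all 16 libraries miR-30a-5p and miR-30e-3p had the opposite sign, at -0.13 and -0.12. The 2 libraries were left out after their values were seen, so p-values without them follow a choice made on the data. The median of all miRNAs was 0.22 in the fit with 14. Relative to that median, miR-30a-5p stood 0.10 higher and miR-30d-5p 0.36 higher. Which members were called changed with the scaling. With library totals in place of TMM the median of all miRNAs was -0.08. miR-30a-5p, miR-30d-5p and miR-30e-3p came to 0.02, 0.27 and 0.07 there, none of these 3 called. For miR-30d-5p the adjusted p was then 0.0558 by edgeR. The members called were then lower in the amygdala: miR-30c-5p at -0.54 (adjusted p = 0.00487), miR-30c-1-3p at -0.48 (adjusted p = 0.0135) and miR-30a-3p at -0.38 (adjusted p = 0.0188), by edgeR. DESeq2 on the 14 libraries called miR-30d-5p alone of the family, at 0.43 (adjusted p = 0.0185), with a median of 0.07 over all miRNAs. Under all 3 of these scalings miR-30d-5p had a positive and miR-30c-5p a negative value, the latter at -0.22 by TMM and -0.36 by DESeq2.

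Ratios between members within a library do not depend on scaling. The ratio of miR-30c-5p to miR-30e-5p was 0.979 to 1.304 (median 1.17) in the 8 raphe libraries and 0.692 to 1.06 (median 0.815) in the 8 amygdala libraries, with a small overlap. The ratio of miR-30a-3p to miR-30e-3p was 0.575 to 0.697 (median 0.648) in the raphe and 0.365 to 0.556 (median 0.505) in the amygdala, with no overlap, also in the libraries that stood apart (0.608 and 0.497). Of the 10 pairs among 3p arms this was the only one without overlap, of the 10 among 5p arms there was none, and of all 203841 pairs of miRNAs tested 6.29% did not overlap. These ratios were picked after their values were seen and are given as a description.

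**Figure D5:**
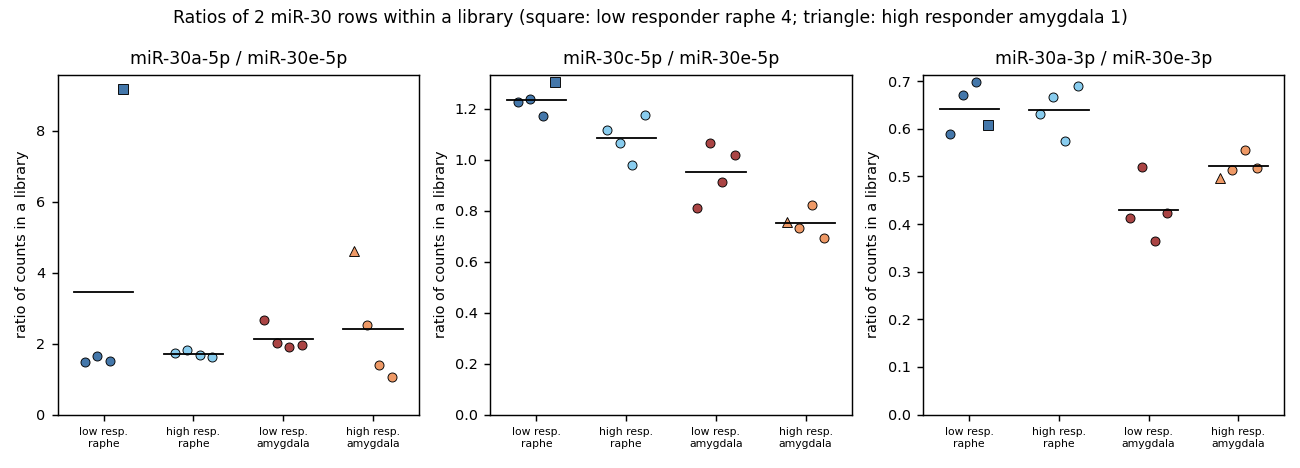
Ratios of miR-30 rows within each library, by region and line. Points are libraries, black lines are group means, squares mark low responder raphe replicate 4 and triangles high responder amygdala replicate 1. The ratio of miR-30a-3p to miR-30e-3p lies at 0.575 to 0.697 in the raphe and 0.365 to 0.556 in the amygdala.

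The balance of 3p to 5p counts was tested by limma on log2 ratios of 263 hairpins. None of the 5 miR-30 pairs passed for lines in the raphe (0% of all hairpins), for lines in the amygdala (1.52%), for regions (4.56%) or for the interaction (1.14%). The miR-30c-1-3p to miR-30c-5p ratio was furthest, 1.28 higher on the log2 scale in high responder amygdala than in low responder amygdala (SE 0.36), with an adjusted p of 0.112 by limma. Group means of that log2 ratio were -8.35 ± 0.852 and -9.62 ± 0.257 (SD, n = 4 each). Leaving out high responder amygdala replicate 4 gave 1.51 (adjusted p = 0.0294 by limma), with 13 hairpins called in place of 4, whereas the 14 libraries gave 0.92 (adjusted p = 0.0851 by limma). High responder amygdala replicate 1 had the highest ratio, -7.28. The interaction value was 1.80 (SE 0.51, adjusted p = 0.197 by limma), and 1.25 (adjusted p = 0.158 by limma) on the 14 libraries. For regions, the miR-30a ratio was lower in the amygdala by a log2 difference of -0.37 (SE 0.17, adjusted p = 0.245 by limma).

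Without the 2 libraries that stood apart, 20.2% of the hairpins passed for regions, among them 2 of the 5 miR-30 pairs, both with relatively fewer 3p counts in the amygdala. The miR-30a ratio differed by -0.40 (SE 0.12, adjusted p = 0.0296) and the miR-30d ratio by -0.36 (SE 0.10, adjusted p = 0.0227), by limma. Leaving out low responder raphe replicate 4 alone gave -0.38 for miR-30d (adjusted p = 0.0306 by limma), with 47 hairpins called. Here too the libraries left out were picked after their values were seen.

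miR-384-5p, the only counted miRNA outside the family found with its seed, measured 1745 ± 493 CPM in low responder raphe, 1746 ± 162 in high responder raphe, 1132 ± 216 in low responder amygdala and 966 ± 524 in high responder amygdala (SD, n = 4 each). It was thus near the level of miR-30b-5p and below the other 5p arms. Its region log2 fold change was -0.68 (SE 0.27, adjusted p = 0.0703 by edgeR), and -0.37 (adjusted p = 0.132 by edgeR) on the 14 libraries.

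Patterns of TMM-scaled log2 CPM were compared among 396 miRNAs outside the family with a mean of at least 10 CPM. The patterns most like the mean of the 5p arms over 16 libraries were those of miR-190b-5p (r = 0.950), miR-191a-5p (0.942), miR-378a-5p (0.933), miR-340-5p (0.930) and miR-93-5p (0.928). Over the 14 libraries these values were 0.863, 0.850, 0.857, 0.766 and 0.812. For miR-30c-2-3p they were miR-143-3p (0.931), miR-100-5p (0.928) and miR-6331 (0.924), with 0.293, 0.425 and 0.285 over 14 libraries. The likeness to miR-30c-2-3p thus lay largely in the 2 libraries that stood apart. miR-143-3p is a smooth muscle and pericyte miRNA and one of the 5 in the vascular list.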

How the data were processed

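Small RNA libraries of 16 rat brain samples were used as deposited by the authors, as whole-number read counts per mature miRNA, 1 table of 722 miRNAs per library. Per the labels' protocols, RNA came from a miRNeasy extraction and the libraries were size-selected. Per the submitters' processing notes, cutadapt 1.3.1, Bowtie2 and bedtools 2.14.2 were used. The handling of multiply matching reads, like settings, build and annotation, is not given in the sources used here, and coordinates printed are those of RefSeq GRCr8. No library was a copy of another (lowest chi-square per degree of freedom 55.4 over 120 pairs).

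edgeR 4.0.16 in R 4.3.3 was fitted on all 16 libraries with a mean for each group (TMM scaling, filterByExpr with minimum count 10 and minimum total 15, which kept 639 and dropped 83 miRNAs, robust quasi-likelihood test, Benjamini-Hochberg adjustment over all miRNAs tested, threshold 0.05). The biological coefficient of variation was 0.426. log2 CPM, used for all correlations between libraries or miRNAs except that with GC content, is TMM-scaled with a prior count of 2. Arm ratios were log2 of 3p over 5p counts, each plus 0.5, tested by limma 3.58.1 (trend, robust) over 263 of 306 hairpins. DESeq2 1.42.0, voom, library totals, no filter, a replicate block, each library left out and 14 libraries were alternatives. Fits were tested on simulated data. The detection floor covers counting error only, and intervals of fold changes cover the spread between libraries.

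The miRNAs named are all members, miR-384-5p for its seed, and the miRNAs most like the family by Pearson r. The members and lists were chosen with earlier results of these data known. The region values of the 14 libraries under library totals and under DESeq2 were added after seeing the data. The 2 libraries left out of the 14 were likewise picked from their values. Sample titles end in a number, 1 to 4, whose meaning is not stated. Same-numbered low and high responder amygdala libraries deviated together (r = 0.69, 0.29, 0.21 and 0.51, all above 0.1) and were taken as paired. Low responder amygdala replicate 3 nonetheless correlated more with another high responder amygdala library. Other groups were not paired, among them high responder raphe and amygdala (r = 0.67, -0.27, 0.35 and 0.53).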

Additional observations from a re-analysis of the deposited data

Results flagged for a closer look

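In each group of 4 libraries the highest and lowest values were checked for a wide gap to the others, over 68 sets of values, of which chance flags about 1 in 20. Low responder raphe replicate 4 gave 10 of the 11 found. It was the lowest of its group for miR-30b-5p (184.621 CPM, others 1573 to 1836), miR-30c-5p (4185.69 CPM, others 15637 to 16708) and miR-30e-5p (3210.59 CPM, others 13349 to 13492). It was the highest for miR-30a-3p (1120.13 CPM, others 486 to 569), miR-30c-2-3p (456.543 CPM, others 122 to 169) and miR-30e-3p (1843.35 CPM, others 816 to 848). Its log2 ratio of 3p to 5p counts was the highest for miR-30c-2 (-3.20, others -7.00 to -6.60) and for miR-30e (-0.80, others -4.03 to -3.99). Its 5p arms summed to 5.66% of the library (others 7.08% to 7.22%) and its 3p arms to 0.345% (others 0.157% to 0.165%). The remaining value was miR-30a-5p in high responder amygdala replicate 2, the highest of its group at 21483 CPM (others 18751 to 19169).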

How the results depend on the processing

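No member was called in the line comparisons of levels or their interaction under any alternative. The values below moved or turned sign, and the cause was not tested. DESeq2 called 19 miRNAs for lines in the amygdala and 22 for the interaction, library totals called 2 for lines in the amygdala, and no filter called 1 for the interaction. For arm ratios, a pseudocount of 5 called 19 for regions and 1 for the interaction, and no filter called 1 for the interaction. With the replicate block 0 arm ratios were called for the interaction in place of 3, and the block changed no other call. It moved miR-30e-5p to -0.079 between regions and, on the raphe libraries alone, miR-30a-5p to 0.022.

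Without both libraries that stood apart, 9 miRNAs were called for lines in the amygdala, 3 for the interaction, 3 members between regions, and 53 arm ratios (2 of miR-30) between regions. Signs then turned for lines in the raphe (miR-30a-5p 0.32, miR-30a-3p 0.090, miR-30e-3p 0.12), lines in the amygdala (miR-30b-5p 0.13, miR-30e-5p 0.18, miR-30a-3p -0.099), regions (miR-30a-5p 0.32, miR-30c-2-3p 0.26, miR-30d-3p 0.21, miR-30e-3p 0.38), the interaction (miR-30b-5p 0.056, miR-30a-3p -0.19, miR-30e-3p -0.54) and arm ratios (miR-30d -0.24 in the raphe, miR-30e -0.51 in the amygdala and -0.44 for the interaction). On these 14 libraries, totals called 240 miRNAs between regions and 3 members, with miR-30a-5p at 0.017, miR-30e-5p at -0.10 and miR-30e-3p at 0.071. DESeq2 on them called 250 and 1 member, with miR-30a-5p at 0.18, miR-30c-2-3p at 0.11, miR-30d-3p at 0.062 and miR-30e-3p at 0.23.

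On 16 libraries, signs turned with totals for miR-30a-5p between lines in the raphe (0.15), miR-30d-5p in the interaction (-0.19) and, between regions, miR-30e-5p (-0.088) and miR-30e-3p (0.00091). Between regions they also turned with voom (miR-30e-5p -0.090, miR-30e-3p 0.018), DESeq2 (miR-30d-3p 0.031) and no filter (miR-30e-5p -0.011). Totals moved the median of all miRNAs from -0.06 to 0.14 for lines in the raphe and from 0.09 to -0.24 for the interaction.

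Leaving out each library in turn gave 0 to 2 miRNAs for lines in the amygdala (2 without low responder raphe replicate 4) and 0 to 1 for the interaction (1 without low responder raphe replicate 1 or high responder amygdala replicate 4). For arm ratios it gave 2 (without low responder amygdala replicate 2 or 4) to 13 (without high responder amygdala replicate 4) for lines in the amygdala with 0 to 1 of miR-30, 9 to 47 (without low responder raphe replicate 4) for regions with 0 to 1 of miR-30, and 0 to 2 for the interaction. Signs turned within these ranges. Lines in the raphe: miR-30a-5p -0.31 to 0.37, miR-30d-5p -0.0092 to 0.42, miR-30a-3p -0.86 to 0.13, miR-30e-3p -0.88 to 0.16. Lines in the amygdala: miR-30b-5p -0.72 to 0.13, miR-30e-5p -0.49 to 0.18, miR-30a-3p -0.094 to 0.23. Regions: miR-30a-5p -0.16 to 0.13, miR-30e-5p -0.095 to 0.27, miR-30c-2-3p -0.46 to 0.18, miR-30d-3p -0.098 to 0.19, miR-30e-3p -0.18 to 0.31. Interaction: miR-30d-5p -0.21 to 0.26, miR-30a-3p -0.11 to 0.86, miR-30e-3p -0.43 to 0.58. Arm ratios: miR-30d -0.24 to 0.20 in the raphe and -0.059 to 0.38 in the interaction, miR-30e -0.51 to 0.56 in the amygdala and -0.21 to 0.50 between regions. The lowest count behind a member's value was 27, of miR-30c-1-3p.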
